A study of Mus musculus with 14 samples.

Results

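Splicing factor and hnRNP genes were examined in mouse testis fractions collected on the way to the chromatoid body, the large RNA and protein granule of round spermatids. The genes were taken by symbol from the table that holds 5 conditions side by side, as those whose symbols start with Snrp, Snrnp, Sf3a, Sf3b, Srsf, Sfrs, Hnrnp or Prpf. There were 71 such genes among the 21905 genes with a symbol. They comprise 3 genes of the U1 snRNP, 8 of the Sm ring, 10 of the U2 snRNP, 19 of the U5 and U4/U6.U5 tri-snRNP, the minor spliceosome and other Prpf factors, 13 of the SR protein family and 18 hnRNP genes. Of 3 symbols that have since changed, Sfrs18 is now Pnisr, Srsf12 of the table is now Srek1, and Srsf13b of the table is now Srsf12; the symbols of the table are kept here.

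All animals were C57BL/6 mice of at least 6 weeks. The lysate was a sonicated suspension of formaldehyde-crosslinked cells from collagenase-treated tubules. Its centrifugation gave the supernatant and pellet1, and pellet1, sonicated again, filtered and spun, gave pellet2. The MVH IP was the material bound by an antibody to MVH (DDX4), a chromatoid body helicase. Round spermatids were sorted from testes, in 1 group with no genotype named and in 1 group labelled hetMIWI. Lysate, supernatant, pellet1, pellet2 and hetMIWI round spermatids had 1 library each, the MVH IP 3 and the other round spermatids 2, 1 of which was made from RNA above 500 bp. Each condition is given in the tables as 1 value per gene, so no spread between libraries could be computed and no difference below has a replicate check. Libraries of control precipitations (1 with IgG, 3 with an acrosin antibody) were not analysed here, so no background of an unrelated antibody is set beside the MVH IP values.

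Introns are removed by the spliceosome, in which the U1 snRNP marks the 5′ splice site, the U2 snRNP with its SF3a and SF3b subcomplexes marks the branch point, and the tri-snRNP brings in the catalytic core. The Sm proteins form the ring on which most spliceosomal snRNPs are built, SR proteins bind exons and promote their use, and hnRNP proteins coat nascent RNA and often oppose SR proteins. Transcripts of SR protein genes are known for ultraconserved "poison" exons, whose inclusion brings a premature stop codon and usually exposes the RNA to nonsense-mediated decay. Testis is known for abundant alternative splicing, and the chromatoid body for holding mRNAs together with proteins of the decay machinery.

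A transcript table of the MVH IP listed 57 RefSeq transcripts of 52 of the 71 genes, and 2 of the 57 (3.51%) were noncoding, against 7.89% of all 6956 RefSeq transcripts listed. Both noncoding transcripts came from SR protein genes, Srsf3 and Srsf7, and both are annotated as nonsense_mediated_decay in GENCODE M21 (GRCm38). The sequences of these transcripts, from that GENCODE release and matched by RefSeq identifier, are shown because they carry the difference between the coding and the noncoding form. In the lines on exon junctions, lower case is the last 15 bases of the shared upstream exon and capitals are the first 15 bases of the exon that follows. In the lines on stop codons, capitals mark the premature stop codon.
Srsf3 NR_036613, junction into the extra exon: tccacctcggcgcagAGTCACCATCATGTC
Srsf3 NM_013663, the same upstream exon joined to the next coding exon: tccacctcggcgcagATCCCCAAGAAGGAG
Srsf3 NR_036613, premature stop: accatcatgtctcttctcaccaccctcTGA
Srsf7 NR_036615, junction into the extra exon: acgaagaagaagcagGTTTCTTCGTTTGAG
Srsf7 NM_146083, the same upstream exon joined to the next coding exon: acgaagaagaagcagGTCACGATCTAGATC
Srsf7 NR_036615, premature stop: aggtttcttcgtttgagtcagtcgcctTGA
The extra exon of Srsf3 was 456 bases long and its stop codon began at base 32 of the exon. The extra exon of Srsf7 was 460 bases long and its stop codon began at base 26. Both stops thus lay close to the start of the extra exon.

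Srsf7, an SR protein of the splicing enhancer type, had 3 transcripts listed in the MVH IP. The coding transcripts NM_001195485 and NM_146083 had a signal of 53.7 and 21.0, and the noncoding NR_036615 had a signal of 17.4, which was 18.9% of the summed signal of 92.1. The noncoding form was the lowest of the 3 but close to the second coding form. Srsf3, the smallest SR protein, had only its noncoding transcript NR_036613 listed, with a signal of 11.1, while the coding NM_013663 had no entry. A transcript with no entry is not known to be absent, since 19 of the 71 genes had no transcript listed at all. The gene table makes no such division, and gave 96.1 FPKM for Srsf3 and 148 FPKM for Srsf7 in the MVH IP (FPKM, fragments per kilobase of transcript scaled to the mapped fragments of the library). The signal is on a scale of its own and cannot be set against these FPKM values. No source used here gives how reads of exons shared between transcripts of a gene were divided. Shares of the summed signal, here and below, are therefore shares of the deposited values and need not be shares of the RNA.

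The 3 other genes with more than 1 transcript listed were Srsf5, Hnrnpab and Hnrnpa2b1. Srsf5 had 2 coding transcripts, NM_001079695 with a signal of 55.3 and NM_009159 with 35.7. Hnrnpab, a relative of Hnrnpd, had NM_010448 with 63.4 and NM_001048061 with 22.8, the latter 26.4% of their sum. Hnrnpa2b1, a regulator of exon skipping and RNA transport, had NM_182650 with 40.8 and NM_016806 with 10.6, the latter 20.6% of their sum. In both hnRNP genes the minor form was the one with an added coding exon, of 141 bases in Hnrnpab and 120 bases in Hnrnpa2b1. The 2 exons are shown in capitals, with 15 flanking bases of the mRNA on each side in lower case, because they are the wholly coding exons that the major form lacks. NM_016806 of Hnrnpa2b1 also has an exon of 136 bases, not wholly coding, that is absent from NM_182650 and is not printed.
Hnrnpab NM_001048061, exon absent from NM_010448: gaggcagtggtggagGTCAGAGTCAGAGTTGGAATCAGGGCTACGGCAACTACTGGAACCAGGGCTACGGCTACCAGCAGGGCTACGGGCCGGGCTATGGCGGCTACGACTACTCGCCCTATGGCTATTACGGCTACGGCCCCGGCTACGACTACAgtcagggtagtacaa
Hnrnpa2b1 NM_016806, exon absent from NM_182650: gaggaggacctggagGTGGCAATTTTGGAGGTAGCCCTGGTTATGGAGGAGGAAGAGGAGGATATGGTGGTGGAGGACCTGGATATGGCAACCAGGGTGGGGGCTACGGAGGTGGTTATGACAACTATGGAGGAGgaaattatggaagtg

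**Figure D1:**
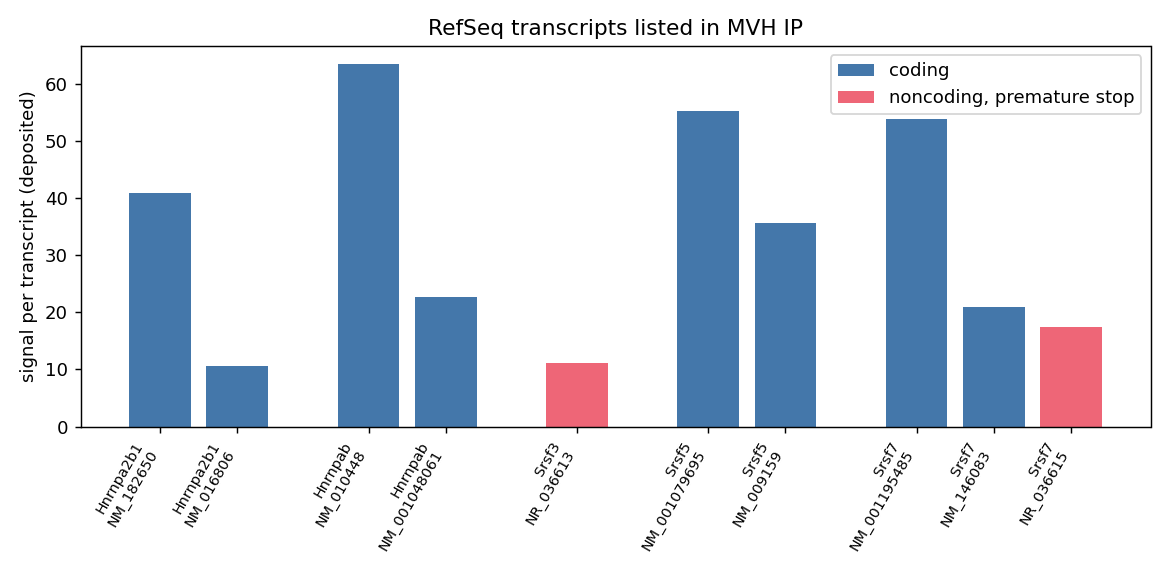
Deposited signal (vertical axis, the authors' own scale) of each RefSeq transcript listed in the MVH IP for the 5 genes with a noncoding transcript or more than 1 transcript; blue bars are coding, red bars noncoding transcripts with a premature stop. The noncoding bars of Srsf3 (11.1) and Srsf7 (17.4) are lower than the coding bars of Srsf7 (53.7 and 21.0).

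Germ cell markers were abundant in the labelled tissue. The 8 round spermatid markers, among them Prm1 and Acrv1, summed to 40236 FPKM in the lysate and 33627 FPKM in the MVH IP, with none at 0 in any of the 5 conditions. The 10 Sertoli cell markers in the table summed to 67.5 FPKM in the lysate, 30.4 in pellet1, 25.4 in pellet2 and 323 in the MVH IP, where 3 (Amh, Rhox8 and Fshr) were listed at 0. The 6 Leydig cell markers summed to 290 FPKM in the lysate and to between 143 and 165 FPKM in the pellets and the MVH IP. The 8 spermatocyte markers summed to 453 FPKM in the lysate, 309 in pellet1, 379 in pellet2 and 481 in the MVH IP. A list of 7 mostly nuclear RNAs summed to 6109 FPKM in the lysate, 10374 in pellet1, 10382 in pellet2 and 1600 in the MVH IP. The higher sums of the pellets came from Rmrp (2779 FPKM in the lysate, 8114 in pellet1 and 8296 in pellet2), and the median log2 difference of the list in pellet1 was -0.20. In pellet2 this median was 0.60, with 1 of 6 measured below the lysate. Neat1 had 76.7 FPKM in the lysate, 147 in pellet1 and 242 in pellet2. In these bulk fractions fewer cells of a type and less RNA per cell cannot be told apart. The depth of the libraries cannot be read from FPKM values and is unknown here.

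The splicing genes were well expressed in every condition. Their median level was 24.1 FPKM in the lysate, 26.0 in the supernatant, 21.9 in pellet1, 24.3 in pellet2 and 45.6 in the MVH IP, where the medians of all genes with a symbol were 1.83, 1.80, 1.85, 1.93 and 3.96 FPKM. In the lysate 59 of the 71 genes reached 10 FPKM and 7 reached 100 FPKM, and in the MVH IP 64 and 14 did. Hnrnpu, a scaffold protein of nuclear RNA, had the highest level of the 71 in the lysate (204 FPKM) and the supernatant (219). Hnrnph1, which binds runs of G, had the highest level in pellet1 (383), pellet2 (371) and the MVH IP (604). Srsf13b was the only gene under 1 FPKM, at 0.33 in the lysate, 0.31 in the supernatant, 0 in pellet1, 0.62 in pellet2 and 0 in the MVH IP. It did not pass the filter on low values (a mean of at least 1 FPKM in the conditions compared), so 70 of the 71 genes were measured in each comparison of the 5 conditions.

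**Figure D2:**
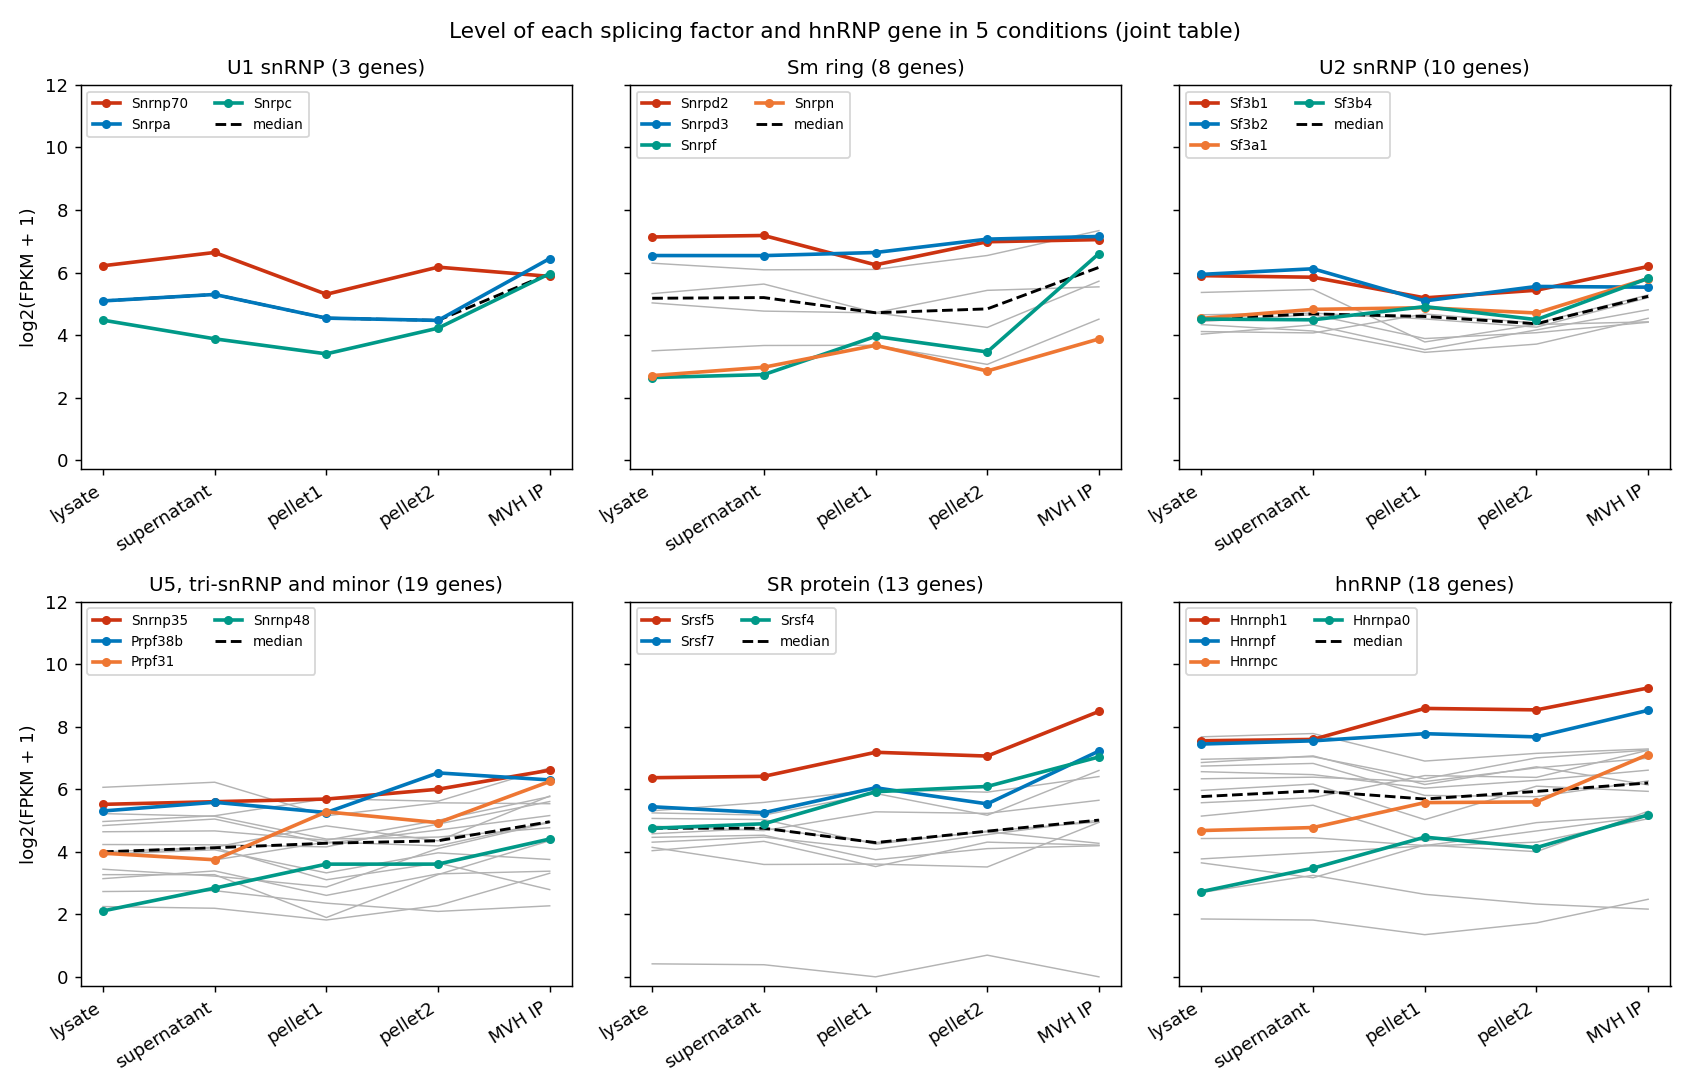
Level of each gene, as log2(FPKM + 1), in the lysate, supernatant, pellet1, pellet2 and MVH IP, with 1 panel per family; coloured lines are genes named in the legends, grey lines the others and the dashed line the family median. The lines are nearly level from lysate to supernatant, part in both directions in pellet1, and mostly end highest in the MVH IP, with Hnrnph1 (604 FPKM) at the top.

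The supernatant could hardly be told from the lysate for these genes. None of the 70 was 2-fold or more higher or lower (background over 12777 genes 0.751% higher and 1.46% lower), on the scale log2(FPKM + 1) used for every difference. The median log2 difference was 0.09, against -0.01 over all genes, and 47 of the 70 lay above 0 (67.1%, against 49.0% of all genes). The supernatant was the highest of the 5 conditions for 20 of the 70 genes (28.6%, background 11.2%), most of the others being highest in the MVH IP (47 of 70, 67.1%, background 67.2%). Snrnp70, the protein of the U1 snRNP that binds the first stem loop of U1 RNA, had 73.3 FPKM in the lysate, 98.8 in the supernatant, 38.5 in pellet1, 71.1 in pellet2 and 57.7 in the MVH IP. Its supernatant value was the highest and its pellet1 value the lowest.

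In pellet1 most U1, U2 and tri-snRNP genes were lower than in the lysate, and SR protein genes were spread to both sides. Of the 70 genes 44 were below their lysate level and 26 above it (37.1%, against 53.2% of all genes), with a median log2 difference of -0.28 where the median of all genes was 0.07. Only 6 were 2-fold or more higher (background 16.8%) and 3 were 2-fold or more lower (background 9.41%), so most differences were smaller than 2-fold. With ratios centred on the median of all genes, 5 were higher (background 15.2%) and 5 lower (background 11.2%). Pellet1 was the lowest of the 5 conditions for 33 of the 70 genes (47.1%, background 24.9%) and the highest for none (background 5.64%). By family, the median log2 difference was -0.91 for the U1 snRNP (0 of 3 genes above the lysate), -0.05 for the Sm ring (4 of 8), -0.52 for the U2 snRNP (3 of 10), -0.37 for the tri-snRNP and minor group (6 of 19), 0.11 for SR proteins (6 of 12) and -0.16 for hnRNPs (7 of 18). The authors' deposited table called none of 69 genes tested at q under 0.05 (background 2.16% higher and 0.0999% lower), with 6 at an unadjusted p under 0.05. Markers of some cell types were lower in pellet1 as well. The median log2 difference was -0.50 for spermatocyte markers (7 of 8 below the lysate). It was -0.67 for Sertoli markers (5 of 5 measured) and -1.18 for Leydig markers (6 of 6). The round spermatid markers had a median of 0.02, with 3 of 8 below the lysate. The spermatocyte median was thus further below 0 than that of the splicing genes. The part of these cell types in the values was not tested.

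Of the U1 genes, Snrpc (chr17:27977032-27988912, mm9), whose product stabilises pairing with the 5′ splice site, had 21.3 FPKM in the lysate, 13.7 in the supernatant, 9.54 in pellet1, 17.6 in pellet2 and 61.5 in the MVH IP. The pellet1 value was 1.08 below the lysate on the log2 scale. Snrpa, which binds a hairpin of U1 RNA, had 33.1, 38.3, 22.3, 21.1 and 86.2 FPKM in the same order of conditions. In this table the pellets were low and the MVH IP was high for both genes. The separate tables gave Snrpc 16.9 FPKM in the lysate and 12.8 in the MVH IP, the opposite direction, and had no MVH IP entry for Snrpa.

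Sf3a3, a subunit of the SF3a complex of the U2 snRNP (chr4:124392105-124409666, mm9), had the largest decrease into the pellets of the 70 genes measured. It had 40.1 FPKM in the lysate, 42.9 in the supernatant, 12.7 in pellet1, 19.2 in pellet2 and 20.4 in the MVH IP. Both pellets and the MVH IP lay below the lysate and the supernatant, with a log2 difference from the lysate of -1.58 in pellet1, -1.03 in pellet2 and -0.94 in the MVH IP. The MVH IP direction turned in the separate tables, which gave Sf3a3 17.8 FPKM in the lysate and 41.8 in the MVH IP. The microRNA gene Mir697 lies in the same locus and was listed at 76.6 FPKM in the lysate and at 0 in the other 4 conditions. Sf3b1, the branch point clamp of the U2 snRNP, had 58.7, 56.6, 35.5, 42.2 and 72.2 FPKM from lysate to MVH IP. Sf3b2, its partner in the SF3b complex, had 60.4, 68.5, 33.1, 46.0 and 45.2 FPKM. These 2, the U2 genes of highest mean level, were both lowest in pellet1.

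Among tri-snRNP and minor spliceosome genes, Snrnp27, a tri-snRNP protein, had 8.64 FPKM in the lysate, 8.63 in the supernatant, 2.72 in pellet1, 8.65 in pellet2 and 19.5 in the MVH IP. Its low value was confined to pellet1 among these 5 conditions. Prpf31 (chr7:3581587-3594086, mm9), which joins the U4/U6 and U5 particles, went the other way. It had 14.5 FPKM in the lysate, 12.4 in the supernatant, 37.8 in pellet1, 29.5 in pellet2 and 75.0 in the MVH IP. Snrnp48, a protein of the U11/U12 particle of the minor spliceosome, had 3.31, 6.15, 11.2, 11.2 and 20.2 FPKM from lysate to MVH IP. Both were lowest in the lysate or supernatant and highest in the MVH IP. The large core factors were different: Prpf8, the scaffold of the catalytic centre, had 36.3, 34.2, 20.2, 21.2 and 26.3 FPKM. Snrnp200, the helicase that unwinds U4/U6, had 65.8, 73.8, 34.5, 46.4 and 45.4 FPKM, again highest before the pellets.

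The other 4 genes at least 2-fold higher in pellet1, beside Prpf31 and Snrnp48, were Hnrnpa0, Snrpf, Srsf4 and Hnrnph1. Hnrnpa0, which binds AU-rich mRNA (chr13:58227240-58229917, mm9), had 5.62 FPKM in the lysate, 10.1 in the supernatant, 21.1 in pellet1, 16.5 in pellet2 and 35.3 in the MVH IP. Its log2 difference from the lysate was 1.74 in pellet1, 1.41 in pellet2 and 2.45 in the MVH IP. Srsf4, one of the longer SR proteins, had 26.0, 28.8, 59.6, 67.1 and 130 FPKM from lysate to MVH IP. Hnrnph1 had 187, 192, 383, 371 and 604 FPKM, with a log2 difference of 1.03 in pellet1. In all 3 genes both pellets and the MVH IP lay above the lysate.

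Pellet2 was closer to the lysate than pellet1. Of the 70 genes 4 were 2-fold or more higher (background 12.5%) and 1 was lower (background 7.21%), and the median log2 difference was 0.10 against 0.08 over all genes. The 4 were Snrnp48, Hnrnpa0, Srsf4 and Prpf38b, and the 1 lower was Sf3a3. With centred ratios 4 were higher (background 10.8%) and 2 lower (background 8.51%). Prpf38b, a relative of the yeast factor Prp38, had 38.5 FPKM in the lysate, 46.9 in the supernatant, 37.2 in pellet1, 91.0 in pellet2 and 77.7 in the MVH IP, and was the only gene of the 70 highest in pellet2 (background 7.03%). Below the lysate in pellet1 but above it in pellet2 were 18 of the 70 genes (25.7%, background 11.9%), 8 of them in the tri-snRNP and minor group. The authors' deposited table called none of 69 genes between pellet2 and lysate (background 0.965% higher and 0.0302% lower), with 5 at an unadjusted p under 0.05, and none of 67 between pellet2 and pellet1 (background 0% higher and 0.0214% lower), with 2 at an unadjusted p under 0.05. Against the supernatant the authors' deposited table called none of 70 genes for the lysate (background 0.00947% higher and 0% lower), for pellet1 (2.96% and 0.111%) or for pellet2 (1.44% and 0.0186%). The genes at an unadjusted p under 0.05 in these 3 pairs numbered 0, 11 and 3, and 8 of the 11 were lower in pellet1.

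In the MVH IP 31 of the 70 genes were 2-fold or more higher than in the lysate and 1 was lower, at a background of 47.3% higher and 7.53% lower. The members' median log2 difference was 0.79 and that of all genes 0.92, so the list's median lay below that of the whole table. With ratios centred on that median, 7 of the 70 genes were 2-fold or more higher (background 18.7%) and 16 lower (background 20.6%). By family the uncentred medians were 1.36 for the U1 snRNP (2 of 3 genes 2-fold or more higher), 0.85 for the Sm ring (4 of 8), 0.42 for the U2 snRNP (3 of 10), 1.06 for the tri-snRNP and minor group (10 of 19), 0.81 for SR proteins (5 of 12) and 0.64 for hnRNPs (7 of 18). The Sertoli markers were higher too, 7 of 8 measured being 2-fold or more higher, and all 6 nuclear RNAs measured were 2-fold or more lower. Their part in the values of the splicing genes was not tested.

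**Figure D3:**
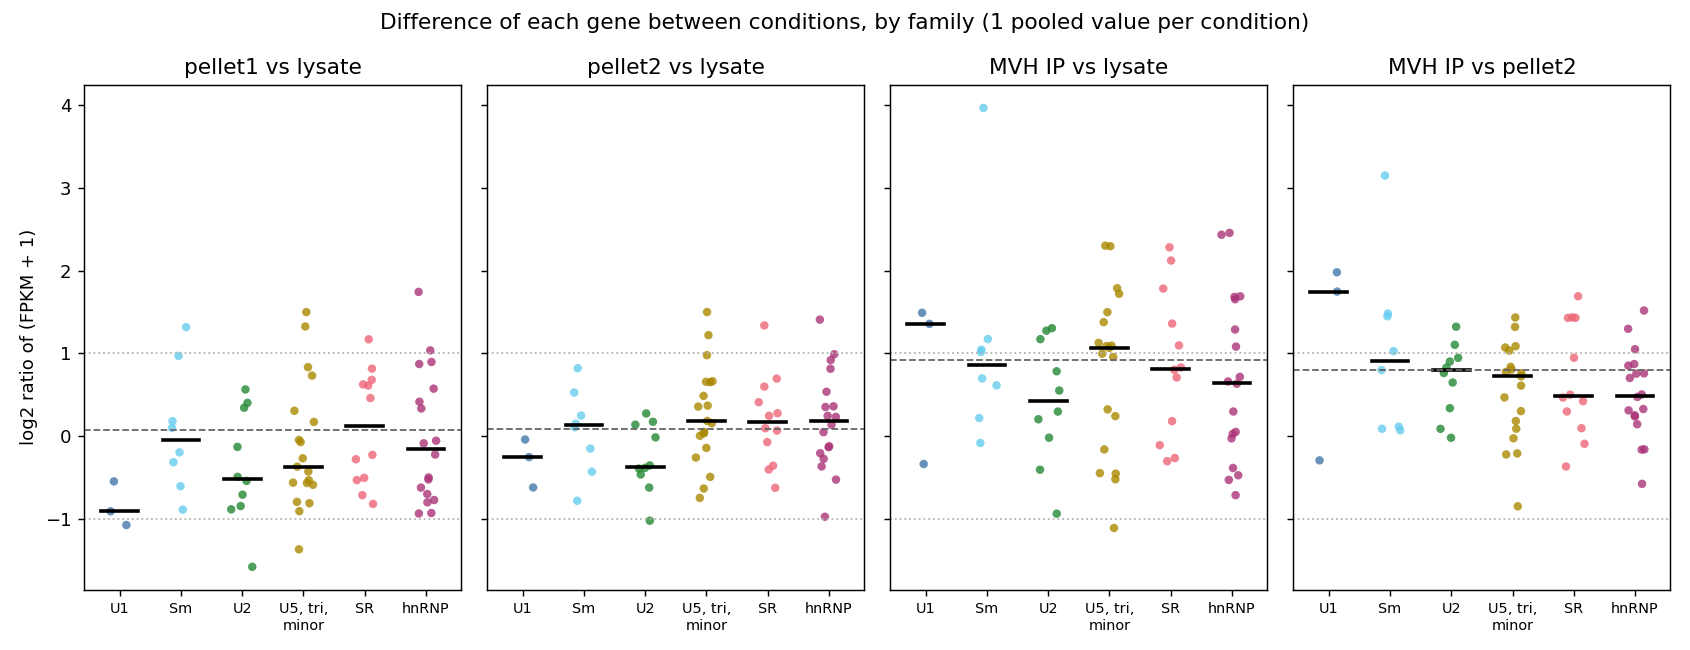
Log2 ratio of FPKM + 1 of each gene in 4 comparisons, by family (U1 snRNP, Sm ring, U2 snRNP, tri-snRNP and minor group, SR proteins, hnRNPs); points are genes, black bars family medians, the dashed line the median of all genes measured and the dotted lines 2-fold. Most U1 and U2 points lie below 0 for pellet1, and Snrpf (3.97) stands above every other gene for the MVH IP against the lysate.

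The authors' deposited table called 7 of 67 genes tested at q under 0.05 as higher in the MVH IP than in the lysate (background 7.05% higher and 0.115% lower), and none as lower. They were 4 SR protein genes (Srsf3, Srsf4, Srsf5 and Srsf7), 2 hnRNP genes (Hnrnpab and Hnrnpc) and Prpf31. Srsf1 and Srsf11, also SR protein genes, had no usable test there because their status was given as failed.

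Srsf5 (chr12:82046491-82051494, mm9), first found as an insulin-induced gene of regenerating liver, had 81.7 FPKM in the lysate, 84.2 in the supernatant, 144 in pellet1, 133 in pellet2 and 359 in the MVH IP. The authors' deposited table gave q = 0.000145 for its MVH IP against the lysate. Srsf7 (chr17:80599424-80606645, mm9) had 42.4, 37.1, 65.1, 45.3 and 148 FPKM from lysate to MVH IP, with q = 0.000824 against the lysate in the authors' deposited table. Both were highest in the MVH IP, and Srsf7 is one of the genes whose premature stop transcript is printed above. Srsf4 had q = 0.0111 in the authors' deposited table. Srsf3 (chr17:29169605-29180317, mm9) had 36.9, 35.1, 57.4, 35.0 and 96.1 FPKM, with q = 0.0132 in the authors' deposited table. Its supernatant, pellet2 and lysate values lay within 2 FPKM of each other.

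In the joint table the SR protein genes did not move alike. Srsf1, the founding member of the family, had 32.5 FPKM in the lysate, 31.7 in the supernatant, 17.9 in pellet1, 24.3 in pellet2 and 30.02 in the MVH IP. Srsf6 had 21.0, 22.1, 12.4, 16.2 and 17.3 FPKM from lysate to MVH IP. These 2, named after their values were seen, were the SR genes below the lysate in both pellets and in the MVH IP of that table. The separate tables turned the MVH IP direction of both, with 128 FPKM against 12.6 in the lysate for Srsf1 and 64.1 against 8.34 for Srsf6. All 10 SR genes they list for both lysate and MVH IP were 2-fold or more higher in the MVH IP (background 78.9%). Srsf10 and Srsf11 had a lysate entry there but none for the MVH IP. Above the lysate in both pellets and the MVH IP of the joint table were 5 of the 12 SR genes measured (Srsf4, Srsf5, Srsf7, Srsf9 and Srsf11). The MVH IP values of Srsf1 and Srsf11 are used as deposited, although their tests against the MVH IP had the status failed. Of all genes 37.5% lay above the lysate in all 3 fractions and 16.8% below it in all 3. The split of the SR genes was thus near that of all genes.

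Hnrnpc, which binds runs of U in nascent RNA (chr14:52693055-52723703, mm9), had 24.6 FPKM in the lysate, 26.4 in the supernatant, 46.6 in pellet1, 47.4 in pellet2 and 137 in the MVH IP. The authors' deposited table gave q = 8.4e-05 for MVH IP against lysate, the smallest of the 71 genes in that pair. Hnrnpab had 46.5, 52.1, 85.7, 82.3 and 151 FPKM from lysate to MVH IP, with q = 0.0140 in the authors' deposited table. Prpf31 had q = 0.0137 in the authors' deposited table. For these 3 genes lysate and supernatant were low, the pellets intermediate and the MVH IP highest. Hnrnpf, a close relative of Hnrnph1, had 173, 186, 218, 204 and 368 FPKM, and was not called in the authors' deposited table.

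**Figure D4:**
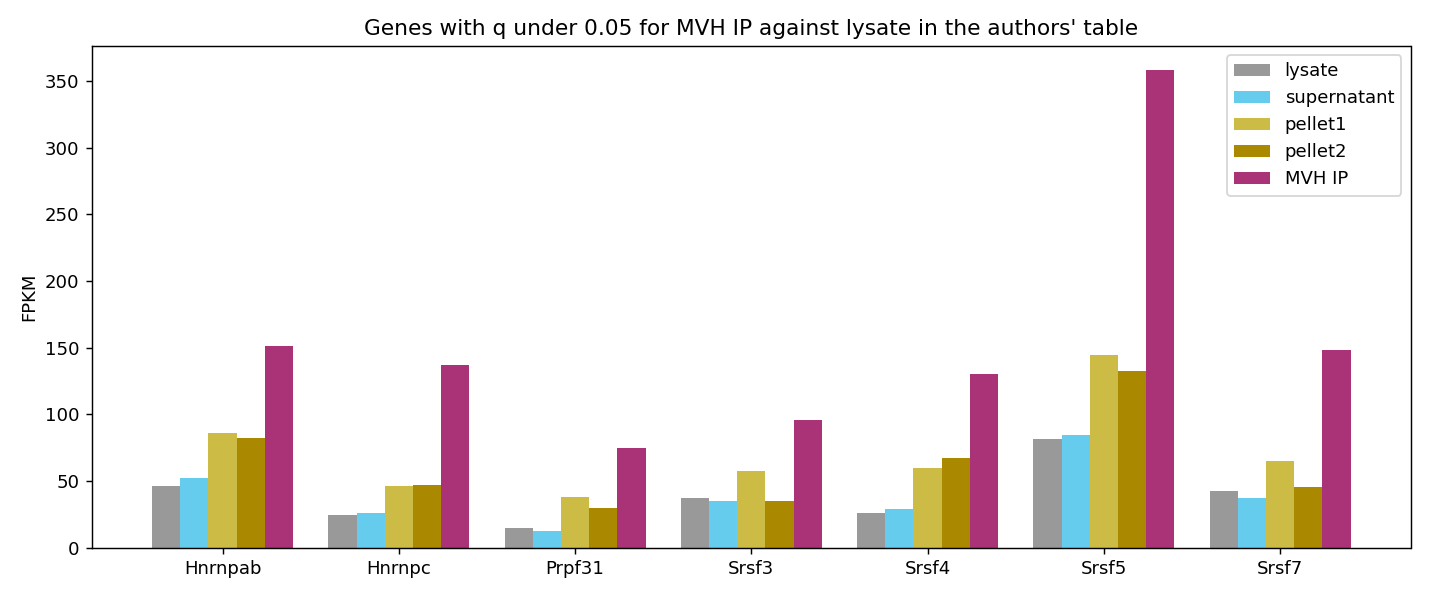
FPKM of the 7 genes that the authors' deposited table calls at q under 0.05 for the MVH IP against the lysate, with 1 bar for each of the 5 conditions and no error bars because each condition has 1 value. The MVH IP bar is the highest for every gene, from 75.0 for Prpf31 to 359 for Srsf5.

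In the joint table several of the most abundant hnRNP genes were below their lysate level in the MVH IP. Hnrnpu had 204 FPKM in the lysate, 219 in the supernatant, 119 in pellet1, 141 in pellet2 and 155 in the MVH IP. Hnrnpl, which binds CA repeats, had 106, 112, 54.8, 53.3 and 75.9 FPKM from lysate to MVH IP. For both genes the lysate and supernatant values were the highest. The separate tables described below turned the MVH IP direction of both, with 219 FPKM in the MVH IP against 92.4 in the lysate for Hnrnpu and 114 against 41.1 for Hnrnpl. All 9 hnRNP genes that those tables list for both conditions were 2-fold or more higher in the MVH IP (background 78.9%). Hnrnpa2b1, Hnrnpf, Hnrnph3, Hnrnpk and Hnrnpul1 had a lysate entry there but none for the MVH IP. Below the lysate in both pellets and the MVH IP were 15 of the 70 genes (21.4%, background 16.8%), among them Hnrnpu, Hnrnpl, Hnrnpul1 and Hnrnpa1. Above the lysate in all 3 fractions were 23 of the 70 (32.9%, background 37.5%), and below it in both pellets but above it in the MVH IP were 11 (15.7%, background 18.6%). The 3 fractions share the lysate as their reference.

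In the joint table the largest difference between MVH IP and lysate was that of Snrpf, the SmF protein of the Sm ring (chr10:93003377-93052403, mm9). It had 5.23 FPKM in the lysate, 5.66 in the supernatant, 14.5 in pellet1, 9.996 in pellet2 and 96.5 in the MVH IP, a log2 difference of 3.97 from the lysate. The locus given for it spans 49027 bp and overlaps Ccdc38, a neighbouring gene with 100.3 FPKM in the lysate and 119 in the MVH IP, so reads of the 2 genes may be hard to divide. No source used here gives the strand setting of the counting. The separate MVH IP table has no entry for Snrpf. The other Sm genes were less far from their lysate level. Snrpd2, the SmD2 protein, had 140, 144, 74.9, 126 and 132 FPKM from lysate to MVH IP. Snrpd3, the SmD3 protein, had 92.2, 92.1, 98.7, 133 and 141 FPKM. Snrpd2 was thus low in pellet1 only, and Snrpd3 was lowest in the lysate and the supernatant.

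Of the 71 genes 10 shared a locus with another feature, and their levels are uncertain for that reason. Hnrnpa1, an abundant shuttling hnRNP in most tissues, was listed at 5.49 FPKM in the lysate and 3.49 in the MVH IP, while Gm10052 in the same locus was listed at 16.1 and 78.9 FPKM. The separate MVH IP gene table gave 70.2 FPKM for Hnrnpa1. Sf3b3, a large scaffold of the SF3b complex, had 16.3, 15.8, 24.5, 19.9 and 37.9 FPKM from lysate to MVH IP. The small nucleolar RNA gene Snord111 in its locus was listed at 3018 FPKM in the lysate, 18409 in pellet1 and 0 in the MVH IP. The host gene and the small RNA in it therefore differed in opposite directions between pellet1 and the MVH IP.

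The MVH IP was also set against pellet2, which the extraction protocol gives as the input of the precipitation, while the sample labels name the lysate. Of the 70 genes 20 were 2-fold or more higher and none lower (background 39.9% higher and 5.78% lower), with a median log2 difference of 0.71 against 0.79 over all genes. The largest were Snrpf (96.5 FPKM against 9.996), Snrpa (86.2 against 21.1) and Snrpc (61.5 against 17.6). The log2 differences of the 2 U1 genes were 1.98 for Snrpa and 1.75 for Snrpc, while the third U1 gene, Snrnp70, had -0.30 (57.7 against 71.1 FPKM). The authors' deposited table called Srsf5 (q = 0.0334) and Srsf7 (q = 0.00578) among 65 genes tested (background 0.89% higher and 0.142% lower). For the MVH IP against pellet1 the authors' deposited table called only Srsf7, with q = 0.0184, among 66 tested (background 0.555% higher and 0.288% lower). For the MVH IP against the supernatant the authors' deposited table called the same 7 genes as against the lysate, of 68 tested (background 9.16% higher and 0.117% lower).

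The step into pellet1 and the step from pellet2 to the MVH IP use 4 different conditions, so they share no value. Over the 70 genes the log2 difference of pellet1 from lysate and that of the MVH IP from pellet2 had a Pearson's r of 0.51 and a Spearman's rho of 0.53. Over all 12154 genes measured in both, r was 0.06 and rho 0.30. The 70 genes were more highly expressed than genes at large. With a mean of at least 1 FPKM over the 5 conditions, the lysate median was 24.3 FPKM for them and 7.03 for all genes. No set of genes matched for level was compared, and the part of level in these correlations was not tested. Without Snrpf, left out after its value was seen, the 69 remaining genes gave r = 0.47 and rho = 0.51, and the 60 measured genes that share no locus gave r = 0.47 and rho = 0.51. These are descriptions across genes of single libraries or pools, and genes are not independent replicates. The span of the locus had r = 0.02 with the pellet1 difference and r = -0.09 with the MVH IP difference.

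Separate gene tables of the lysate, MVH IP, round spermatids and hetMIWI round spermatids list only genes of at least 5 FPKM and were each scaled on their own, so levels set across them are less secure. They list 59, 58, 54 and 32 of the 71 genes, with 24 genes in all 4 and 4 in none. A gene with no entry is not necessarily below the floor: Hnrnpf had 368 FPKM in the MVH IP of the joint table and no entry in the separate MVH IP table. Of the 50 genes that both list, 43 were 2-fold or more higher in the MVH IP than in the lysate (background 78.9%) and none lower (background 0.473%). Both kinds of table had 18 genes higher, and 25 were higher in the separate tables alone. The direction itself differed between the 2 kinds of table for 16 of the 50 genes. All 15 that lay below the lysate in the joint table lay above it in the separate tables, 10 of them by 2-fold or more. Snrpc went the other way. Of all genes, 95.0% lay above the lysate in the separate tables and 78.9% did so by 2-fold or more. The share of all genes whose direction differed between the 2 kinds of table was not counted. Whether the turn of the 15 genes is particular to splicing genes therefore cannot be said. In the separate tables the median of all genes was 2.03 on the log2 scale, against 0.92 in the joint table. The 15 genes came from every family, with 1 of the U1 snRNP, 1 of the Sm ring, 3 of the U2 snRNP, 4 of the tri-snRNP and minor group, 3 SR protein genes and 3 hnRNP genes. Prpf40b, a factor of the early spliceosome that bridges the splice sites, was the only 1 past 2-fold in both directions. It was the 1 gene 2-fold or more lower in the joint table (14.0 FPKM in the lysate and 5.91 in the MVH IP), and the separate tables gave 6.50 and 40.4 FPKM. Hnrnpd, a regulator of AU-rich mRNA decay, had 358 FPKM in the separate MVH IP table and 32.3 in the joint table, so the size of an enrichment depends on the table.

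In sorted round spermatids hnRNP genes parted from each other. Of the 51 genes that both list, 10 were 2-fold or more higher than in the lysate (background 22.6%) and 7 lower (background 3.61%), with a median log2 difference of 0.14 against 0.31 over all genes. With centred ratios 5 were higher (background 15.2%) and 7 lower (background 8.04%). Of the 13 hnRNP genes in both, 5 were higher and 3 lower. Hnrnpd had 62.1 FPKM in round spermatids and 5.04 in the lysate. Its lysate value lay just above the 5 FPKM floor of these tables, and the joint table gave 12.7 FPKM for the lysate. Hnrnpa2b1 had 14.6 FPKM in round spermatids and 51.6 in the lysate. Hnrnpl had 14.7 and 41.1 FPKM in the same order. Outside the hnRNPs, Prpf18 (17.3 against 5.77 FPKM), a second-step factor, was higher. Its lysate value was near the floor too, and was 15.1 FPKM in the joint table. Snrpd2 (29.1 against 76.2) was lower. Of the 8 round spermatid markers none was 2-fold or more higher in the sorted cells than in the lysate and 4 were lower, so these markers do not separate the sorted cells from whole testis in these tables.

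Set against round spermatids, the MVH IP had 36 of 45 genes 2-fold or more higher (background 75.4%) and none lower (background 0.545%), with a median log2 difference of 1.93 against 1.85 over all genes. The medians of the SR protein genes (3.59, 8 of 8 higher) and of the hnRNP genes (2.73, 9 of 10) lay above this level. Those of the U1 snRNP (0.65, 1 of 2), the Sm ring (1.52, 3 of 5), the U2 snRNP (1.35, 6 of 9) and the tri-snRNP and minor group (1.68, 9 of 11) lay below it. This order of families rests on the separate MVH IP table. In the joint table, against the lysate, the MVH IP medians of SR protein (0.81) and hnRNP genes (0.64) lay below that of all genes (0.92). The separate MVH IP table also lacks 9 genes listed in round spermatids, among them Srsf10, Srsf11, Hnrnpf and Hnrnpk. Hnrnph1 had 1217 FPKM in the MVH IP and 49.9 in round spermatids. Srsf4 had 140 and 5.79 FPKM, and Hnrnpc 214 and 10.4. With ratios centred on the median of all genes, 13 of the 45 were 2-fold or more higher (background 20.3%) and 7 lower (background 21.5%).

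Among genes listed in both groups, 3 of 4 Sm genes were 2-fold or more higher in hetMIWI than in the other round spermatids. Of the SR protein genes listed in both, 3 of 5 were 2-fold or more lower. A further 22 genes were listed in the other round spermatids but had no hetMIWI entry. They include the Sm genes Snrpd1 and Snrpg (35.1 FPKM) and the SR protein genes Srsf2, Srsf4, Srsf5 (50.4 FPKM), Srsf9 and Sfrs18. The shares of both families thus leave these genes out. Of the 32 genes that both list, 8 were 2-fold or more higher (background 12.7%) and 3 lower (background 10.5%). With centred ratios 5 were higher (background 3.59%) and 6 lower (background 18.3%). The 4 Sm genes had a median log2 difference of 1.32. Snrpf, whose locus overlaps Ccdc38, had 77 FPKM against 12.1. Snrpd2 had 84.0 against 29.1, while Snrpe, the SmE protein, had 25 against 28.3. The 5 SR protein genes had a median of -1.06. Srsf11 had 8.41 FPKM against 32.6, Srsf1 had 6.90 against 26.9, and Srsf10, a regulator that represses splicing in heat shock, had 6.06 against 13.7. Srsf7 had 24.1 FPKM against 28.9, and Srsf3 was on the other side with 8.22 against 5.29. Snrpb2, the U2B″ protein, was higher with 33.5 FPKM against 9.97, and so was Hnrnpa3, which binds the same kind of site as Hnrnpa1, with 59.5 against 18.4. The hetMIWI group is 1 library and the other group a pool of 2, 1 of which was made from RNA above 500 bp, so genotype, library and RNA size cannot be told apart.

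**Figure D5:**
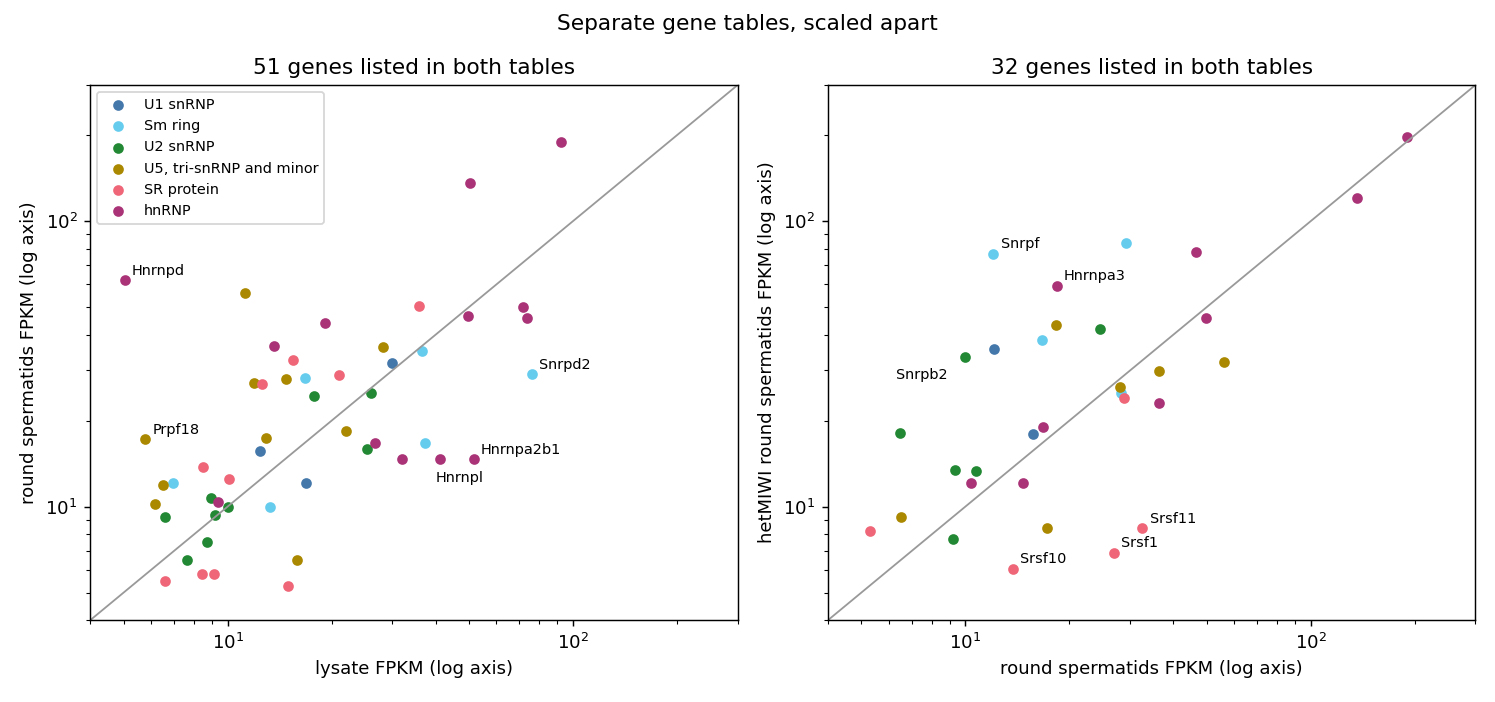
FPKM in round spermatids against lysate (left, 51 genes) and in hetMIWI against other round spermatids (right, 32 genes), both axes logarithmic; points are genes coloured by family and the line marks equal levels. Hnrnpd (62.1 against 5.04) lies far above the line on the left, and Srsf1, Srsf10 and Srsf11 lie below it on the right while Snrpf lies above. The lysate value of Hnrnpd is near the 5 FPKM floor of the tables.

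Other genes of the splicing pathway matched the 70 genes in some comparisons and not in others. Of 46 further spliceosome genes measured, 20 (43.5%, background 47.3%) were 2-fold or more higher in the MVH IP than in the lysate and 1 (2.17%, background 7.53%) was lower, with a median log2 difference of 0.75. In pellet1 their median was 0.09, where that of the 70 genes was -0.28, with 5 of 46 higher (10.9%, background 16.8%) and 3 lower (6.52%, background 9.41%). In pellet2 3 of 45 were higher (6.67%, background 12.5%) and 5 lower (11.1%, background 7.21%). Against pellet2 their MVH IP median was 0.85, above the 0.79 of all genes, while that of the 70 genes was 0.71.

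Of 43 splicing regulators measured, the MVH IP had 14 higher than the lysate (32.6%, background 47.3%) and 2 lower (4.65%, background 7.53%), with a median of 0.45. In pellet1 they split into 4 higher (9.30%, background 16.8%) and 6 lower (14.0%, background 9.41%), with a median of -0.18. In pellet2 3 of 42 were higher (7.14%, background 12.5%) and none lower (background 7.21%). Neither list had a median above that of all genes (0.92) in the MVH IP against the lysate.

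Among these regulators are the kinases that phosphorylate SR proteins, named here after their values were seen. Clk3 had 30.6 FPKM in the lysate, 28.1 in the supernatant, 189 in pellet1, 112 in pellet2 and 315 in the MVH IP. Clk4 had 79.7, 62.7, 321, 222 and 539 FPKM from lysate to MVH IP, and Clk1 had 22.3, 18.1, 53.4, 45.7 and 89.4. Clk2 differed from its relatives, with 22.8, 37.7, 24.4, 27.9 and 24.8 FPKM. Srpk1, the cytoplasmic SR protein kinase, had 170, 180, 65.3, 92.4 and 64.1 FPKM, and was thus lower in both pellets and the MVH IP. Srpk2, its close relative, had 96.0, 103, 66.1, 88.0 and 110 FPKM, and was above the lysate in the MVH IP. Clk1, Clk3 and Clk4 were the 3 regulators 2-fold or more higher in pellet2.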

How the data were processed

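Libraries were made from total RNA with not-so-random priming and gel-selected at 350 to 500 bp, per the labels' protocols. Reads were aligned with TopHat and quantified with Cuffdiff on mm9, per the submitters' processing notes; no source used here gives their versions. The joint table holds FPKM values for 10 pairs of the 5 conditions, pooled by the authors to 1 value per condition, with the p-values and q-values the authors deposited. The separate gene tables hold FPKM values deposited for 1 condition each, at or above 5 FPKM. The transcript table holds a deposited signal whose unit is not stated; its column for another kind of library was not used. Start coordinates were raised by 1 to count from 1.

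From these, log2((FPKM + 1)/(FPKM + 1)) was computed for every gene with a mean of at least 1 FPKM, and genes past 2-fold were counted (Python 3.11.15, pandas 2.3.3, numpy 2.4.6, scipy 1.17.1, matplotlib 3.10.9; the ratio was tested on simulated data). The background is the share of all measured genes past the same threshold, and was not matched to the splicing genes for level. With 1 pooled value per condition no test of this work's own was made, and precision is unknown. Alternatives were a pseudocount of 0.1, no filter, ratios centred on the median of all genes, genes at 0 left out, and the separate tables.

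Genes named are, in each comparison, the 3 with the largest and the 3 with the smallest ratio past 2-fold, the 2 of highest mean level per family, those listed at 0, those called by the authors at q under 0.05, and those past 2-fold in opposite directions between tables; others were named after their values were seen, where they complete a family. A gene that this rule names is not reported here. The genes and lists were chosen with earlier results of these data known.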

Additional observations from a re-analysis of the deposited data

How the results depend on the processing

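No paired analysis was possible because each condition holds 1 pooled value per gene. Nor could a library be left out. A pseudocount of 0.1, no filter on low values, and leaving out genes listed at 0 kept every count of 2-fold genes within 1.5 times of its value. Centring ratios on the median of all genes moved 11 counts. For pellet1 against lysate 5 genes were lower in place of 3, and for pellet2 against lysate 2 in place of 1. For the MVH IP against the lysate 7 were higher in place of 31 and 16 lower in place of 1; against pellet2, 2 were higher in place of 20 and 6 lower in place of none (0). For round spermatids against lysate 5 were higher in place of 10. For the MVH IP against round spermatids 13 were higher in place of 36 and 7 lower in place of 0. For hetMIWI against other round spermatids 5 were higher in place of 8 and 6 lower in place of 3. For the MVH IP against the lysate the separate tables gave 43 of 50 genes higher (86%) in place of 31 of 70 (44.3%), 0 lower in place of 1, and another direction for 16 of the 50. Centring follows from the shift of all genes; the cause of the difference between tables was not tested.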
